A study of Mus musculus with 8 samples.

Results

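Adipocyte genes were followed across subcutaneous tumors of Lewis lung carcinoma (LLC), a lung cancer line of C57BL/6 mice implanted where fat tissue borders it. The set consisted of 10 genes, Adipoq, Lep, Retn, Plin1, Plin4, Cidec, Lpl, Lipe, Fabp4 and Scd1, chosen by symbol from 55487 annotated genes, and all 10 passed the filter on low counts that left 16061 genes for testing. RNA was sequenced in bulk from 8 tumors taken at day 12, of which 4 carried wild-type LLC cells and 4 carried LLC cells labelled Ago2 knock-out (ΔAgo2). All hosts were syngeneic C57BL/6J mice with an unaltered genome, given by the study as females of 6 to 8 weeks when bought, and every library carried the same batch label. The ΔAgo2 line was made with a lentiviral CRISPR guide and puromycin, and a single clone was used for engraftment, so the genotype and the clone cannot be told apart. Replicates were labelled as biological.

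Library totals ran from 7903288 counts in wild-type tumor 4 to 268564145 counts in ΔAgo2 tumor 4, and 0 reads of a gene allow a level of up to 0.430 CPM in the former. Such limits cover counting error only. CPM is the read count relative to its library's total, here after adjusting the totals by the trimmed mean of M values (TMM). The transcript of Ago2 itself was no lower in the tumors labelled knock-out, with 154 ± 28.9 CPM for the wild-type group and 240 ± 99.2 CPM for the group labelled ΔAgo2 (SD, n = 4). Its log2 fold change was 0.64 ± 0.30 (SE) at an adjusted p of 0.205 in edgeR's quasi-likelihood test. Directions below are therefore those of tumors labelled ΔAgo2. The study's evidence for the knock-out is of another kind, a Western blot of Ago2 protein in the cell lines and growth restored by complementation. Transcript levels in whole tumors do not test it, and the study states that other cells of a tumor express Ago2 too. In such bulk tissue, fewer adipocytes and less RNA per adipocyte cannot be told apart. Wild-type tumor 3 stood apart in its marker genes of muscle and skin, as described with the marker lists, and results are given with and without it.

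White adipocytes store triglyceride in a single large droplet and release fatty acids from it on hormonal demand. Lipoprotein lipase at the vessel wall frees fatty acids from circulating lipoproteins, binding proteins carry them inside the cell, and perilipins and CIDEC coat the droplet and hold back the lipases. Mature adipocytes also secrete hormones, among them adiponectin and leptin, and their identity is set by the nuclear receptor PPARγ with factors of the C/EBP family. Subcutaneous fat and the skin's own fat layer lie next to a tumor implanted in the flank. Of the 10 genes, Adipoq, Lep, Retn, Plin1 and Cidec are the most restricted to adipocytes, whereas Fabp4 is also made by endothelial cells and macrophages, Lpl by muscle and macrophages, Plin4 by muscle, and Lipe and Scd1 by many cells, Scd1 strongly in sebaceous glands.

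Promoter sequence was available for 7 of the 10 genes, from RefSeq on GRCm38.p6, and none was held for Fabp4, Lpl and Scd1. The stretches before the annotated starts of Adipoq, Retn, Plin1 and Cidec are shown because these are adipocyte-restricted genes that were high in the same tumors. They are written 5′ to 3′ on the gene's strand, and capitals mark a match to the C/EBP core TTGCNNAA. Adipoq lies on the plus strand at chr16:23146286-23146535, Retn on the plus strand at chr8:3655520-3655769, Plin1 on the minus strand at chr7:79732904-79733026 and Cidec on the minus strand at chr6:113435761-113436010.
Adipoq: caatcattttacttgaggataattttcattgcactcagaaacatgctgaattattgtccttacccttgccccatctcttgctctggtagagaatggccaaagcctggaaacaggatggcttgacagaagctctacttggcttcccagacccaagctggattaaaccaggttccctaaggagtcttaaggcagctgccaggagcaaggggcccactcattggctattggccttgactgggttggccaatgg
Retn: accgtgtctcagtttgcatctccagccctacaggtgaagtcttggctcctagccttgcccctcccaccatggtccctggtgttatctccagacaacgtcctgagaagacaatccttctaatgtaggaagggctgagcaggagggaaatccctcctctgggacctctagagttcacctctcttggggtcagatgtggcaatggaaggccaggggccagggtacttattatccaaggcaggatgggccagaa
Plin1: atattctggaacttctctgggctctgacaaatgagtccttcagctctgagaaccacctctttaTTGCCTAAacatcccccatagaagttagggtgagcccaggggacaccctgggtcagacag
Cidec: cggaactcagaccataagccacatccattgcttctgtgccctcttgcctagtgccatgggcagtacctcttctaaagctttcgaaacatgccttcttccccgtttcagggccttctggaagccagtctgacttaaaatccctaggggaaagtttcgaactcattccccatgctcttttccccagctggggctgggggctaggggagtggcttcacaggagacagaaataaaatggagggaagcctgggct

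Windows of 250 bases before each RefSeq start were searched on both strands for 4 motifs. TTGCNNAA was found in 3 of 9 windows of these genes, once before Lep at base -55, in Plin1 at -187 and -58, and before a second Cidec start at -198, counted from the start, against 9.56% of all 32851 windows. For Plin1 the base at -58 lies inside the gene as GENCODE annotates it, so that stretch is not shown. The windows of the second Cidec start and of both Lipe starts lie wholly inside those genes, so the 9 windows are not all upstream sequence. The motifs AGGTCA, bound by nuclear receptors, its direct repeat with 1 base between the copies, which overlaps AGGTCA by construction and is the form bound by PPARγ with RXR, and TATAAA occurred in 0 of the 9 windows and in 14.0%, 0.0335% and 12.4% of all windows. A match is a description of the letters and not a bound site. Nothing follows about the factors from a window without a match.

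Adipoq encodes adiponectin, the most abundant hormone of white adipocytes (ENSMUSG00000022878.5, chr16:23146536-23158028, plus strand). Its level was 0.731, 0.858, 11.4 and 1.43 CPM in wild-type tumors 1 to 4 and 18.0, 0.237, 1.01 and 1.45 CPM in ΔAgo2 tumors 1 to 4. A single tumor of each genotype, wild-type tumor 3 and ΔAgo2 tumor 1, thus stood well above the other 6, and the groups overlapped. From ΔAgo2 tumor 2, with 27 reads, to ΔAgo2 tumor 1, with 875 reads, the level differed 75.8-fold, the widest span of the 8 genes that had reads in every tumor. The fitted log2 fold change, ΔAgo2 over wild-type, was 0.46 ± 1.22 (SE) with an adjusted p of 0.828 in edgeR's quasi-likelihood test.

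Retn encodes resistin, a hormone that mouse adipocytes secrete (ENSMUSG00000012705.16, chr8:3655770-3660110, plus strand). Its level was 0.562, 0, 4.65 and 0.860 CPM in wild-type tumors 1 to 4 and 11.2, 0.193, 0.567 and 0.588 CPM in ΔAgo2 tumors 1 to 4. The same pair of tumors was high as for Adipoq, and wild-type tumor 2 had 0 reads, which allows up to 0.143 CPM. Its log2 fold change was 0.97 ± 1.32 (adjusted p = 0.655).

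Lep encodes leptin, the hormone that signals the size of fat stores (ENSMUSG00000059201.12, chr6:29060220-29073877, plus strand). It was scarce throughout, with levels of 0.356, 0, 0.483 and 0 CPM in wild-type tumors 1 to 4 and 0.574, 0.0790, 0.507 and 0.413 CPM in ΔAgo2 tumors 1 to 4. Lep was the only gene of the set for which wild-type tumor 3 and ΔAgo2 tumor 1 were not the 2 highest tumors by CPM, and no tumor but ΔAgo2 4, the deepest library, held more than 28 of its reads. A count of 0 allows up to 0.143 CPM in wild-type tumor 2 and up to 0.430 CPM in wild-type tumor 4, so that wild-type tumor 4 cannot be placed among these values. ΔAgo2 tumor 2, with 9 reads, lay below ΔAgo2 tumor 4, with 118 reads. The log2 fold change was 0.53 ± 0.83 (adjusted p = 0.707).

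**Figure D1:**
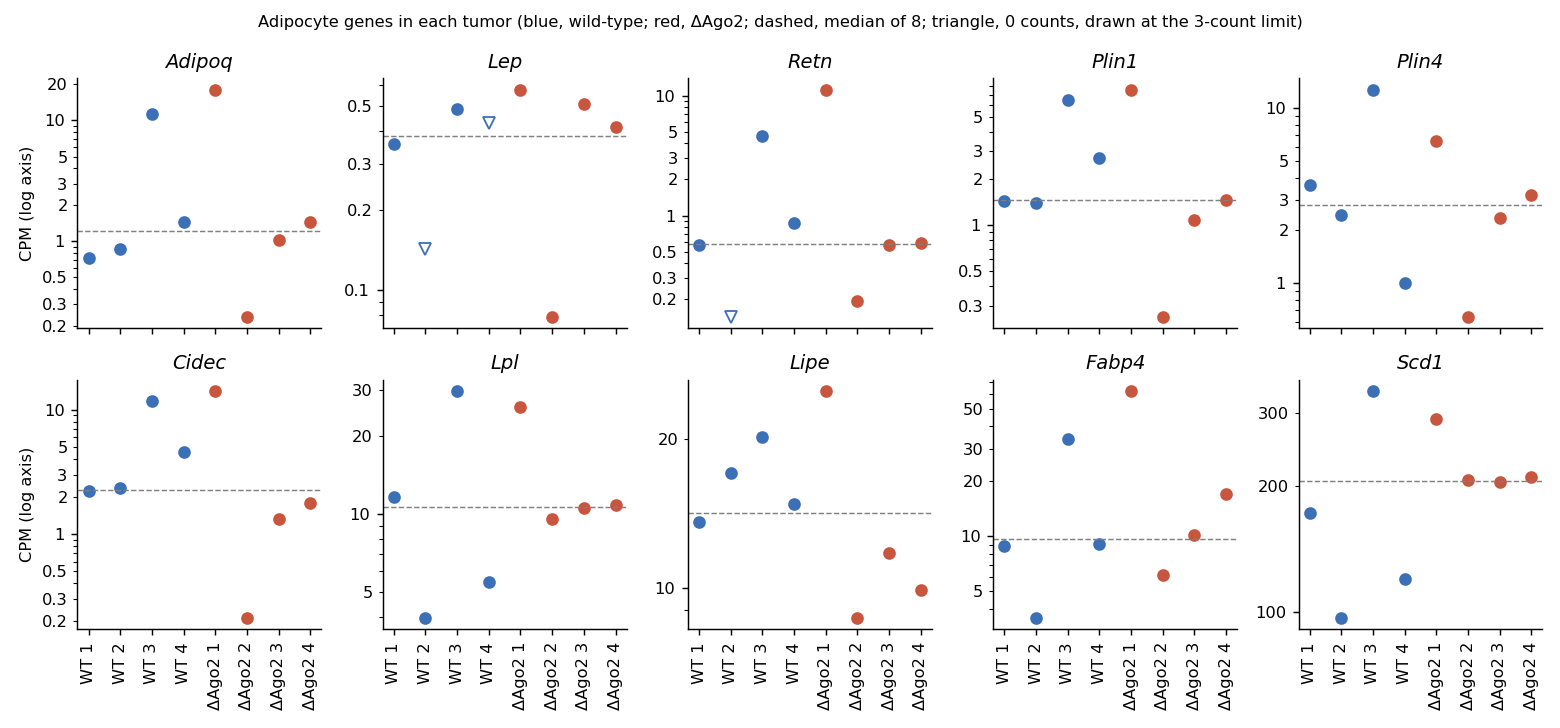
Level of each of the 10 adipocyte genes in each tumor, in CPM on a log axis whose range differs between panels, with wild-type tumors in blue and ΔAgo2 tumors in red; the dashed line is the median of the 8 tumors and an open triangle marks 0 reads, drawn at the limit that 3 counts give. Wild-type tumor 3 and ΔAgo2 tumor 1 are the 2 highest in every panel but that of Lep.

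Plin1 encodes perilipin 1, the coat protein of the adipocyte droplet that gates lipolysis (ENSMUSG00000030546.14, chr7:79720218-79732903, minus strand). Reads came to 1.42, 1.38, 6.50 and 2.72 CPM in wild-type tumors 1 to 4 and to 7.53, 0.254, 1.07 and 1.46 CPM in ΔAgo2 tumors 1 to 4. Apart from wild-type tumor 3 and ΔAgo2 tumor 1, the 3 remaining wild-type tumors held 1.84 ± 0.762 CPM and the 3 remaining ΔAgo2 tumors 0.930 ± 0.616 CPM (SD, n = 3), and these ranges overlapped. Its log2 fold change over all tumors was -0.24 ± 0.87 (adjusted p = 0.876).

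Cidec encodes a protein of the droplet surface that drives fusion of small droplets into one (ENSMUSG00000030278.11, chr6:113424634-113435760, minus strand). Its values were 2.21, 2.34, 11.8 and 4.59 CPM in wild-type tumors 1 to 4 and 14.1, 0.211, 1.31 and 1.77 CPM in ΔAgo2 tumors 1 to 4. Leaving aside the 2 high tumors, every wild-type value lay above every ΔAgo2 value, a comparison chosen after the values were seen. Its span of 66.8-fold was close to that of Adipoq, and the log2 fold change was -0.28 ± 1.00 (adjusted p = 0.874).

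Plin4 encodes perilipin 4, which coats nascent droplets (ENSMUSG00000002831.14, chr17:56100591-56109803, minus strand). The gene overlaps Hdgfl2 on the opposite strand and the strand setting of the counting is not given in the sources used here, so its reads are uncertain. It measured 3.64, 2.43, 12.8 and 1.00 CPM in wild-type tumors 1 to 4 and 6.48, 0.640, 2.36 and 3.18 CPM in ΔAgo2 tumors 1 to 4. Here the level in wild-type tumor 3 was 1.97 times that in ΔAgo2 tumor 1, the reverse of the order for Adipoq, Retn, Plin1, Cidec and Fabp4. The log2 fold change was -0.69 ± 0.76 (adjusted p = 0.571).

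Fabp4 encodes the fatty acid binding protein of the adipocyte cytoplasm (ENSMUSG00000062515.3, chr3:10204088-10208576, minus strand). Its level was 8.90, 3.58, 33.9 and 9.03 CPM in wild-type tumors 1 to 4 and 62.2, 6.18, 10.2 and 17.0 CPM in ΔAgo2 tumors 1 to 4. ΔAgo2 tumor 1 reached 6.46 times and wild-type tumor 3 reached 3.53 times the median of the 8 tumors, and the groups overlapped. Among the 10 genes this was the second largest log2 fold change, 0.77 ± 0.77 (adjusted p = 0.533).

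Lpl encodes lipoprotein lipase (ENSMUSG00000015568.16, chr8:68880491-68907448, plus strand). Its level was 11.6, 3.96, 29.8 and 5.45 CPM in wild-type tumors 1 to 4 and 25.9, 9.51, 10.5 and 10.8 CPM in ΔAgo2 tumors 1 to 4. The 3 lower ΔAgo2 tumors lay close to each other, from 9.51 to 10.8 CPM, whereas the wild-type tumors other than tumor 3 ranged from 3.96 to 11.6 CPM around them. The log2 fold change was 0.14 ± 0.58 (adjusted p = 0.895).

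Lipe encodes hormone-sensitive lipase, which cleaves diglycerides released from the droplet (ENSMUSG00000003123.15, chr7:25379527-25398710, minus strand), and it shares its locus with the antisense gene 4732471J01Rik, so its reads are uncertain as well. Its level was 13.6, 17.1, 20.2 and 14.8 CPM in wild-type tumors 1 to 4 and 25.0, 8.69, 11.8 and 9.89 CPM in ΔAgo2 tumors 1 to 4. The span of 2.88-fold was the narrowest of the set. By CPM every ΔAgo2 tumor but tumor 1 lay below every wild-type tumor, a comparison chosen after the values were seen. The log2 fold change was -0.25 ± 0.34 (adjusted p = 0.652).

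Scd1 encodes stearoyl-CoA desaturase 1, which makes monounsaturated fatty acids (ENSMUSG00000037071.3, chr19:44394455-44407879, minus strand). It measured 173, 96.4, 339 and 119.5 CPM in wild-type tumors 1 to 4 and 290.2, 208, 205 and 211 CPM in ΔAgo2 tumors 1 to 4. Without wild-type tumor 3 the groups no longer overlapped, at 129.6 ± 39.1 CPM (SD, n = 3) against 228 ± 41.4 CPM (SD, n = 4). The share of all genes without overlap was not computed for this choice of tumors. Over all tumors its log2 fold change was 0.33 ± 0.36 (adjusted p = 0.568).

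On the deposited TPM values, in which counts were divided by gene length, which allows levels of different genes to be set side by side, Scd1 was by far the highest. Its median over the 8 tumors was 131 TPM, and its lowest tumor, at 49.3 TPM, exceeded the highest value of any other gene of the set, 30.4 TPM for Fabp4. Medians then followed in the order Lipe at 6.445, Fabp4 at 6.41, Cidec at 3.49, Lpl at 3.24, Adipoq at 2.2, Plin4 at 1.4, Retn at 1.1, Plin1 at 0.97 and Lep at 0.34 TPM. Neighbours in that order after Scd1 overlapped in their ranges over the tumors, so it does not separate them. In ΔAgo2 tumor 1 the order was another, with Adipoq at 28.5 TPM and Retn at 15.6 TPM above Lipe at 9.33 TPM.

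The 2 high tumors were then considered as a pair, a choice made after the values were seen and therefore a description without a test. By CPM, wild-type tumor 3 and ΔAgo2 tumor 1 were the 2 highest tumors for 9 of the 10 genes, whereas the same held for 743 of 16061 genes tested (4.63%). For 5 of the 10, Adipoq, Retn, Plin1, Cidec and Fabp4, both tumors were in addition at least 3-fold above the median of the 8, as they were for 32 of all genes tested (0.199%). Retn stood 19.4-fold and Adipoq 14.7-fold above the median in ΔAgo2 tumor 1, against 8.04-fold and 9.32-fold in wild-type tumor 3. At the other end, ΔAgo2 tumor 2 was the lowest tumor for Adipoq, Plin1, Plin4, Cidec and Lipe.

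**Figure D2:**
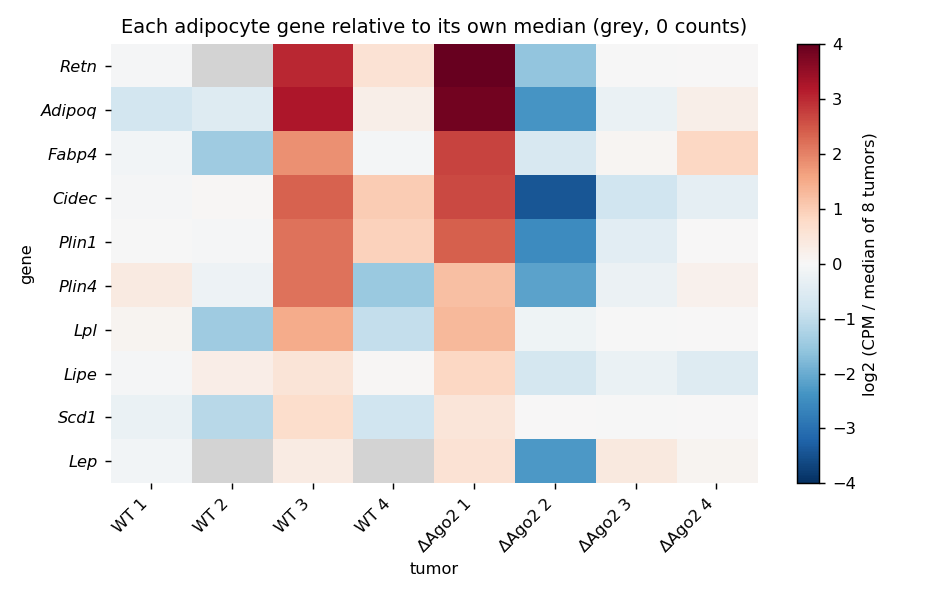
Each adipocyte gene in each tumor as log2 of its CPM over the median of the 8 tumors, with red above and blue below the median, grey for 0 reads and the scale cut at 4 either way. The columns of wild-type tumor 3 and ΔAgo2 tumor 1 are red in every row, most deeply for Retn and Adipoq, and the column of ΔAgo2 tumor 2 holds the deepest blue, for Cidec.

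The scale of the values bore on this pattern in part. On TPM, both tumors remained the 2 highest for 8 of the 10 genes, with Scd1 the further exception, since ΔAgo2 tumor 1 at 130.2 TPM was then the lowest ΔAgo2 tumor for Scd1. Wild-type tumor 3 was above ΔAgo2 tumor 1 for 3 genes by CPM and for 7 by TPM, so that the order of the 2 tumors depends on the scale for Lep, Plin1, Cidec and Lipe. For Adipoq, Retn and Fabp4, ΔAgo2 tumor 1 was the higher on both scales, and for Plin4, Lpl and Scd1 it was wild-type tumor 3. For Lipe and Lpl the scale changed which single tumors of the 2 groups overlapped. The signs of their log2 fold changes did not change, at -0.13 for Lipe and 0.42 for Lpl on log2(TPM + 1). Lipe in wild-type tumor 4, at 5.06 TPM, lay below every ΔAgo2 tumor, of which the lowest was at 5.4 TPM. Lpl was at 1.05 to 3.16 TPM in wild-type tumors other than tumor 3, and at 3.16 to 3.51 TPM in ΔAgo2 tumors other than tumor 1.

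Within a library, ratios of reads to Adipoq do not depend on scaling between libraries. In the 2 high tumors 1.03 and 0.784 reads of Cidec and 0.569 and 0.419 reads of Plin1 were counted per read of Adipoq, in wild-type tumor 3 and ΔAgo2 tumor 1. For Fabp4 these were 2.97 and 3.46 reads, and for Retn 0.407 and 0.625. For Lipe the ratio was 1.77 and 1.39 in the high tumors and 6.81 to 36.7 in the other 6, and for Scd1 it was 29.7 and 16.2 against 83.4 to 876. The genes thus did not move in one proportion, with Lipe and Scd1 changing far less between tumors than Adipoq did. In the low tumors these ratios rest on 10 to 39 Adipoq reads, except in ΔAgo2 tumor 4 with 415.

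Between genotypes, 0 of the 10 adipocyte genes passed an adjusted p of 0.05 in edgeR's quasi-likelihood test over all 8 tumors, where 3.49% of the genes tested did. By unadjusted p under 0.05 it was also 0 of 10, against 26.7% of the genes tested. DESeq2 called 0 of the 8 for which it gave an adjusted p, which Adipoq and Retn lacked, and 14.9% of all genes with one. Limma's voom with quality weights called 1 of 10, Lipe, at a log2 fold change of -0.61 (adjusted p = 0.0426), where it called 27.9% of all genes. The median log2 fold change of the 10 genes was 0.23, beside 0.04 for all genes tested, and 6 of the 10 were positive, whereas with voom the median was -0.49 and 3 of the 10 were positive. Groups that did not overlap were found for 0 of the 10 genes and for 16.4% of the genes tested.

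Without wild-type tumor 3, 0 of the 10 genes passed, and 5.68% of the genes tested did. The median log2 fold change became 0.91, 9 of the 10 values were positive, and 2 genes, Fabp4 and Scd1, had an unadjusted p under 0.05, as did 30.2% of the genes tested. Fabp4 was then at 1.75 ± 0.72 (adjusted p = 0.138) and Scd1 at 0.82 ± 0.26 (adjusted p = 0.0765). For Adipoq the fitted value was 2.45 ± 1.26 (adjusted p = 0.210) and for Retn 2.87 ± 1.48 (adjusted p = 0.214), and both rested on ΔAgo2 tumor 1.

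Without ΔAgo2 tumor 1 in turn, 0 of the 10 passed against 11.0% of the genes tested, the median was -1.01 and 2 of the 10 values were positive. Unadjusted p under 0.05 was then found for Plin1, Cidec and Lipe, at -1.70 ± 0.72 (adjusted p = 0.125), -2.26 ± 0.81 (adjusted p = 0.0833) and -0.71 ± 0.22 (adjusted p = 0.0626). These are 3 of 10, where 35.8% of the genes tested had such a p. For Adipoq the value turned to -2.03 ± 1.04 (adjusted p = 0.187). Thus 7 of the 10 values, those of Adipoq, Retn, Plin1, Plin4, Cidec, Lpl and Fabp4, were positive without wild-type tumor 3 and negative without ΔAgo2 tumor 1, and a single tumor set their direction. Lep and Scd1 were positive and Lipe was negative either way.

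With both tumors left out, an alternative chosen after the values were seen, 0 of the 10 genes passed where 25.1% of the genes tested did. The median log2 fold change was -0.01, with 5 of the 10 positive. The hormone genes Adipoq and Retn were then at -0.08 ± 0.65 (adjusted p = 0.940) and 0.05 ± 0.87 (adjusted p = 0.971). All 3 droplet coat genes were negative, Cidec the most, at -1.44 ± 0.67 (adjusted p = 0.136), and Lipe was at -0.61 ± 0.24 (adjusted p = 0.0862). A p that misses the threshold does not show that the genotypes were alike: 2 standard errors around the values of Adipoq and Retn span more than a 2-fold difference in either direction.

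**Figure D3:**
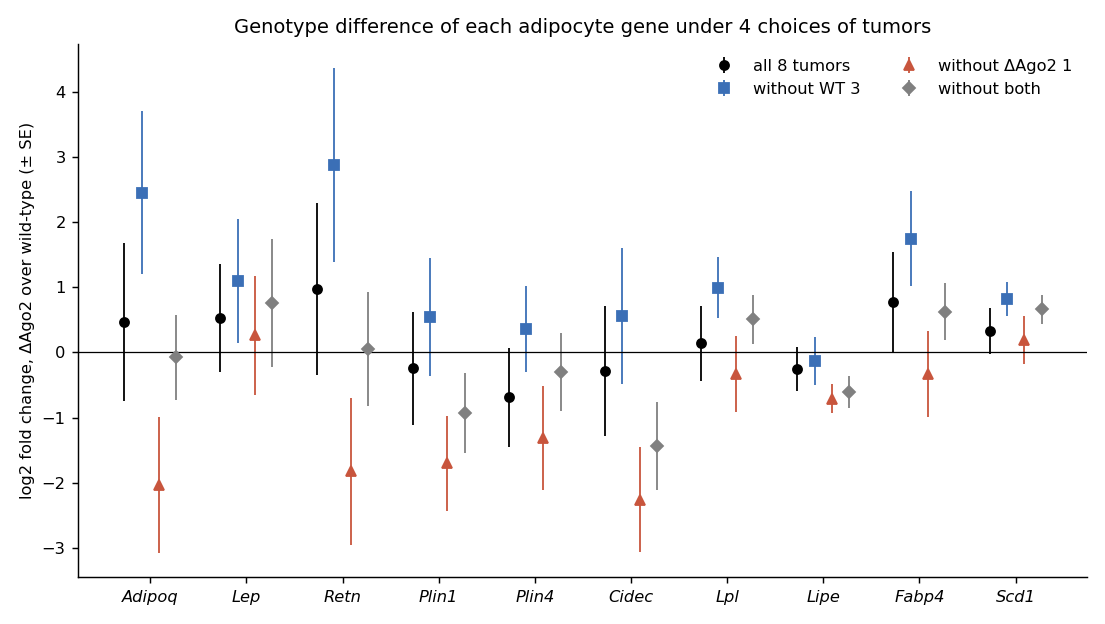
Fitted log2 fold change of each adipocyte gene, ΔAgo2 over wild-type, with its standard error, over all 8 tumors (black circles), without wild-type tumor 3 (blue squares), without ΔAgo2 tumor 1 (red triangles) and without both (grey diamonds). Adipoq moves from 2.45 without wild-type tumor 3 to -2.03 without ΔAgo2 tumor 1, while Scd1 stays between 0.19 and 0.82.

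Beyond these genes, 62 further genes of adipocyte biology were listed in 6 groups, of which 55 passed the count filter. In edgeR's test over all 8 tumors 1 of the 55 passed, Rbp4, which encodes the retinol carrier that adipocytes and liver secrete, and 3.49% of all genes did. Rbp4 fell by 1.84 ± 0.31 on the log2 scale (adjusted p = 0.0124), from 48.6, 43.1, 64.3 and 70.2 CPM in wild-type tumors 1 to 4 to 26.2, 11.3, 13.8 and 11.9 CPM in ΔAgo2 tumors 1 to 4. Its wild-type values were all higher, and it was called without wild-type tumor 3 as well, at -1.77 (adjusted p = 0.0231). Without ΔAgo2 tumor 3 or without ΔAgo2 tumor 4, 0 of the listed genes passed, Rbp4 included. Of the 55 genes, 5 had groups that did not overlap, Pparg, Cebpd, Srebf1, Me1 and Rbp4, which is 9.09% against 16.4% of all genes tested.

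Of the 9 adipogenic transcription factors, 8 were tested, 0 passed over all 8 tumors and the median log2 fold change was -0.83. Without wild-type tumor 3, Cebpd and Srebf1, the latter a regulator of lipid synthesis, passed at -1.64 (adjusted p = 0.0486) and -1.20 (adjusted p = 0.0378), where 5.68% of all genes tested passed. In wild-type tumors 1, 2 and 4 Cebpd was at 1.10, 1.24 and 3.17 times its median of the 8 tumors, and at 0.325 to 0.901 times in ΔAgo2 tumors. For Srebf1 these were 1.22, 2.31 and 2.64 times, and 0.858 to 0.918 times. Pparg, named here because its groups did not overlap, measured 3.41, 1.81, 3.09 and 0.430 CPM in wild-type tumors 1 to 4 and 6.11, 4.49, 5.10 and 4.68 CPM in ΔAgo2 tumors 1 to 4, with a log2 fold change of 1.15 ± 0.45 (adjusted p = 0.143). Neither wild-type tumor 3 nor ΔAgo2 tumor 1 stood out in these values as they did for Adipoq, and 0 of the 8 tested factors had both as their 2 highest tumors. Klf15, which was too low to be tested, was at 0.904 CPM in wild-type tumor 3, 0.349 CPM in ΔAgo2 tumor 1 and at most 0.143 CPM in 5 others, while 0 reads in wild-type tumor 4 allow up to 0.430 CPM.

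Among fatty acid and glycerol uptake genes, 0 of 9 tested passed over all tumors, and Slc27a4 and Lmf1, a fatty acid transporter and the factor that folds lipases, passed without wild-type tumor 3 at -0.97 (adjusted p = 0.0446) and -1.29 (adjusted p = 0.0378). For fatty acid and triglyceride synthesis 0 of 14 passed, and Scd2, the most abundant of them, and Fasn, the fatty acid synthase, were at 0.45 ± 0.20 (adjusted p = 0.176) and -0.63 ± 0.26 (adjusted p = 0.163). Other lipid droplet proteins passed in 0 of 7, with Plin2, the perilipin of most cell types, at 0.03 ± 0.23 (adjusted p = 0.942). Lipolysis genes passed in 0 of 7, with Pnpla2, the lipase of the first step, at -0.44 ± 0.24 (adjusted p = 0.250), and among other secreted products and hormone receptors Rbp4 was the only one of 10. The receptors for adiponectin, Adipor1 and Adipor2, were at 0.18 ± 0.18 (adjusted p = 0.538) and -0.02 ± 0.21 (adjusted p = 0.966). Without both high tumors 14 of 54 tested genes passed, 3 of them higher in ΔAgo2 tumors, Cd36, Elovl6 and Nampt, beside 25.1% of all genes.

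Some of the listed genes shared the pattern of the high tumors, given again as a description. Wild-type tumor 3 and ΔAgo2 tumor 1 were the 2 highest for 8 of the 55 tested genes (14.5%), beside 4.63% of all genes tested. They were also the 2 highest for 6 of the 7 genes too low to be tested. The count filter drops genes with few reads in most tumors, so the share of all genes tested is no measure for these 6. Both tumors were at least 3-fold above the median for 3 of the tested genes, Cfd, Pck1 and Retnla, beside 0.199% of all genes tested. The same held for 5 of those too low to be tested, Klf15, Adrb3, Aqp7, Thrsp and Acvr1c, whose medians rest on few reads. Cfd, the serine protease adipsin made by fat cells, measured 16.7, 10.5, 124.7 and 21.8 CPM in wild-type tumors 1 to 4 and 250.4, 2.90, 11.4 and 13.2 CPM in ΔAgo2 tumors 1 to 4. Pck1, which makes glycerol phosphate for triglyceride in fat, was at 3.95 and 4.94 CPM in the 2 high tumors and at most 0.382 CPM in the others with reads, with 0 reads in wild-type tumor 4. Adrb3, the adrenergic receptor of adipocytes, and Thrsp, a lipogenic factor, reached 2.08 and 2.89 CPM and 1.74 and 8.86 CPM in the 2 high tumors, where no other tumor with reads exceeded 0.143 and 0.161 CPM. Adrb3 too had 0 reads in wild-type tumor 4, where up to 0.430 CPM is allowed. Of the 32 genes with both tumors at least 3-fold high, 24 were in no list, named here after their values were seen: among them Gpd1 and Adig are known from adipocytes, Cd5l and Cd209b from macrophages, and Mfap5, Mgp and Clec3b from connective tissue. Of the 32, 0 were on a marker list of another cell type.

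By a fixed rule, the genes whose log2 CPM over the 8 tumors was most alike to the mean profile of the 10 genes were ranked among 13064 genes with a mean of at least 1 CPM. The highest Pearson correlations were those of Cdo1 at 0.977, Hp at 0.969, Apod at 0.965, Ephx2 at 0.962 and Ccl8 at 0.958, followed by Isca1, Tspan6, Mfap5, Cfd and Dnaja3, the last at 0.945. These points share libraries and scaling, and with 8 tumors, 2 of them far from the rest, the ranking is a description. Of the top 10, 1 gene, Ccl8, was also among the top 10 without wild-type tumor 3, and 3 were shared with a ranking by Spearman's rho. Hp, which encodes haptoglobin, was at 105 and 125 CPM in the 2 high tumors and at 9.85 to 43.9 CPM in the others.

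Markers of other cell types were set beside the adipocyte genes. Skeletal muscle markers, 10 genes all detected, summed to 3412 CPM in wild-type tumor 3 and to 48.8 to 466 CPM in the other 7, with 191 CPM in ΔAgo2 tumor 1. Keratinocyte markers, 10 of 10 detected, summed to 11.8 CPM in wild-type tumor 3 and to 168 to 892 CPM elsewhere, with 517 CPM in ΔAgo2 tumor 1. Wild-type tumor 3 was thus the highest in muscle and the lowest in keratinocyte markers, and ΔAgo2 tumor 1, which was also high in adipocyte genes, was neither. The part of muscle and skin tissue in the adipocyte values was not tested.

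**Figure D4:**
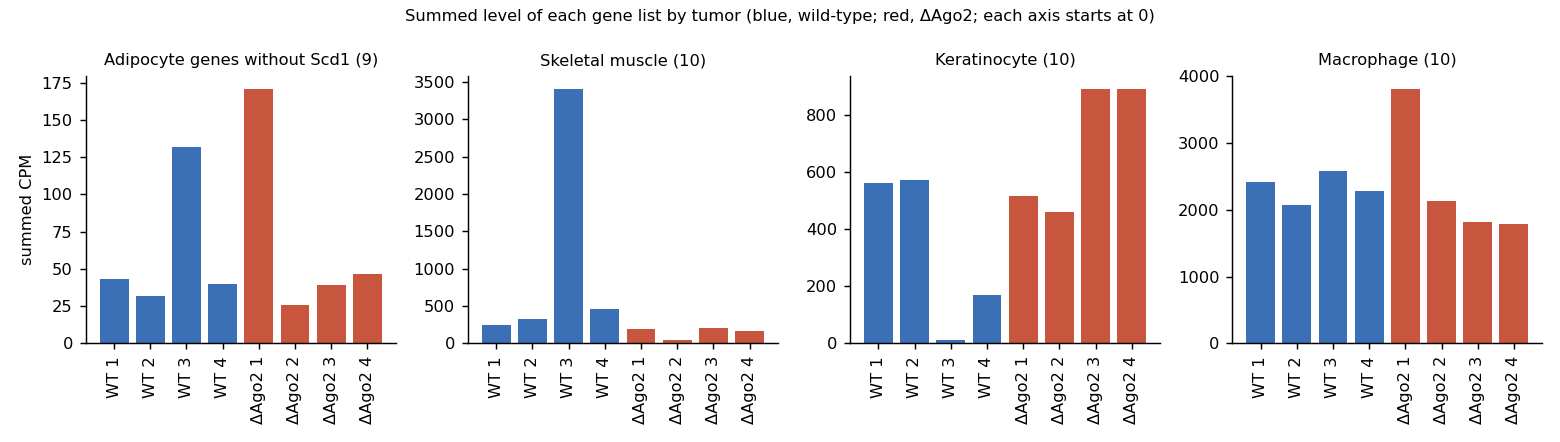
Summed CPM of 4 gene lists in each tumor, wild-type in blue and ΔAgo2 in red, each axis starting at 0 with its own range; adipocyte genes are the 9 without Scd1. Wild-type tumor 3 and ΔAgo2 tumor 1 are high in adipocyte genes, wild-type tumor 3 alone is high in muscle and low in keratinocyte markers, and ΔAgo2 tumor 1 has the highest macrophage sum, to which the C1q genes and Lyz2 contribute most while Adgre1, Cd68, Csf1r and Mrc1 lie at or below their medians.

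Macrophage markers, 10 of 10 detected, reached a sum of 3813 CPM in ΔAgo2 tumor 1 beside 1781 to 2577 CPM for the other 7, and fibroblast markers, 10 of 10, to 2393 CPM there and 4241 to 7324 CPM elsewhere. Of the 10 macrophage markers 6 were highest in ΔAgo2 tumor 1, C1qa, C1qb and C1qc at 2.10 to 2.22 times their medians and Lyz2, Cd14 and Fcgr1, whereas Adgre1, Cd68, Csf1r and Mrc1 were at 0.883 to 1.00 times theirs. Of the fibroblast markers 4 were lowest there, among them Col3a1, the most abundant, at 0.377 times its median. Only Thy1 and Dpt were above their medians there, at 1.44 and 1.07 times. In wild-type tumor 3, by contrast, 6 of the 10 fibroblast markers were highest, among them Col1a1 and Col1a2 at 2.99 and 3.43 times their medians. The macrophage sum was 1.73 times its median in ΔAgo2 tumor 1 and 1.17 times in wild-type tumor 3. Fabp4 and Lpl are also macrophage genes, and the part of macrophages in their values was not tested. For Adipoq, Retn, Plin1 and Cidec together, chosen because they shared the pattern of high tumors, the sum was 34.3 CPM in wild-type tumor 3, 50.8 CPM in ΔAgo2 tumor 1 and between 0.895 and 9.60 CPM elsewhere. Lep, also restricted to adipocytes, was left out of this sum. It was at 1.26 times its median in wild-type tumor 3 and 1.49 times in ΔAgo2 tumor 1. Adipocyte progenitor markers, 9 genes, summed to 502 CPM in ΔAgo2 tumor 1, 336 CPM in wild-type tumor 3 and 166 to 253 CPM elsewhere. In ΔAgo2 tumor 1 the sum was carried by Ly6a, at 333 CPM and the only one of the 9 that was highest there, whereas in wild-type tumor 3 7 of the 9 were highest and Ly6a was not. Only Dlk1 had both tumors as its 2 highest. The endothelial sum of 10 markers lay between 133 and 206 CPM, and the pan-leukocyte sum of 5 between 433 and 906 CPM.

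Lists for other fat-rich or milk-making cells had their highest sums in ΔAgo2 tumor 3, and not in wild-type tumor 3 or ΔAgo2 tumor 1. Brown adipocyte markers, 6 genes, summed to 1.15 to 4.93 CPM, and Ucp1, the uncoupling protein that defines these cells, had 0 reads in 5 of the 8 tumors and at most 4 reads in the others. Sebaceous gland markers, 7 genes, summed to 2.08 to 31.3 CPM with 2.08 CPM in wild-type tumor 3 and 7.57 CPM in ΔAgo2 tumor 1, neither above the highest of the other tumors. The milk genes Csn2, Csn1s1 and Wap were at 0 in all 8 tumors. The 7 mammary markers summed to 1.43 to 5.07 CPM in wild-type tumors and to 7.62 to 11.0 CPM in ΔAgo2 tumors. Of the tested markers of other cells, those past an adjusted p of 0.05 in edgeR's test over all tumors were Krt10, Ivl and Csn3, higher in ΔAgo2 tumors, and Myh2, Vwf and Fap, lower. In the same test without wild-type tumor 3, Ivl (adjusted p = 0.0504) and Vwf (adjusted p = 0.0506) missed the threshold, and the others passed. Of all genes tested, 3.49% passed over all tumors and 5.68% without wild-type tumor 3.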

How the data were processed

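RNA-seq libraries of 8 LLC tumors were made, per the labels, from TRIzol extracts with a stranded mRNA ligation kit and sequenced paired-end at 100 bp. Groups and replicate numbers were taken from titles and genotype labels. The authors deposited raw gene counts and TPM values. For cultured cells the study states alignment to ribosomal RNA sequences and to mm10 and counting with featureCounts, and the submitters' processing notes name STAR and mm10. Which annotation release and strand setting were used, and how reads with several matches were treated, is not given in the sources used here. Of 55487 identifiers, 99.29% matched GENCODE M21 with their version, and Plin4 matched without it.

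The counts were fitted with edgeR 4.0.16 under R 4.3.3, using filterByExpr, TMM scaling, the quasi-likelihood test without covariates and Benjamini-Hochberg adjustment over all genes tested at 0.05. DESeq2 1.42.0, limma 3.58.1 and the settings in the closing section were alternatives. Log2 CPM used a prior count of 2. The procedure was tested on simulated data in which no single tumor was set apart, so that test does not cover a tumor far from its group. The adipocyte genes and all lists were chosen with earlier results of these data known. The genes named were the 10 adipocyte genes, Ago2, listed genes past the threshold with or without wild-type tumor 3, the 2 most abundant and 2 most changed genes of each list, and the 10 genes most alike in profile. Others are said to be named after their values were seen, or were chosen for the shared pattern of the 2 high tumors. Depth per library ran from 7903288 to 268564145 counts, so low genes are least precise in wild-type tumor 4. Coordinates are on GRCm38.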

Additional observations from a re-analysis of the deposited data

Results flagged for a closer look

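Each of the 10 adipocyte genes was examined for a tumor far from the other 3 of its genotype, by the gap to the nearest tumor as a share of the range (Dixon's 95% criterion). Of 20 groups, 7 passed, and all were high values. By chance 1 would be due among independent groups. These groups share tumors and the genes were chosen with earlier results known, so the 7 are a description and not a test. In wild-type tumors it was Adipoq, at 11.4 CPM in tumor 3 against 0.731 to 1.43 CPM. The other 6 were in ΔAgo2 tumor 1. Adipoq was at 18.0 CPM against at most 1.45 CPM in the other ΔAgo2 tumors, Retn at 11.2 against 0.588, Plin1 at 7.53 against 1.46 and Cidec at 14.1 against 1.77 CPM. Lpl was at 25.9 against 10.8 CPM. Scd1 was at 290.2 against 211 CPM, but on TPM its value in ΔAgo2 tumor 1 was the lowest of the genotype, at 130.2 TPM. The cause of these values was not tested.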

How the results depend on the processing

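Of 233 refitted log2 fold changes of single adipocyte genes, 210 kept their direction and side of the threshold, 22 turned sign and 1 newly passed; with 0 genes past the threshold at the outset, this says little of stability. Leaving out each tumor in turn gave 0 adipocyte genes past the threshold each time, 88 to 1793 of all genes, 0 to 5 listed pathway genes and a median of -1.01 to 0.91. Of all genes, 143, 934 and 265 passed without wild-type tumors 2, 3 and 4 and 1793 without ΔAgo2 tumor 1, and leaving out any other ΔAgo2 tumor gave 88 (tumor 4) to 166 (tumor 2). Of the pathway genes, 2 passed without wild-type tumor 1, 5 without wild-type tumor 3 or ΔAgo2 tumor 1, and 0 without ΔAgo2 tumor 3 or 4. Single genes then ran from -2.03 to 2.45 for Adipoq, -1.82 to 2.87 for Retn, 0.16 to 1.09 for Lep, -1.70 to 0.54 for Plin1, -1.31 to 0.35 for Plin4, -2.26 to 0.56 for Cidec, -0.33 to 0.99 for Lpl, -0.71 to -0.09 for Lipe, -0.33 to 1.75 for Fabp4 and 0.12 to 0.82 for Scd1. All genes past the threshold numbered 560 at first, 983 without a count filter, 2292 by DESeq2, 4476 by voom, 1178 with a length correction, and 153, 107 and 77 on log2(TPM + 1), log2(TPM + 0.1) and log2(TPM + 1) without a filter. Pathway genes past the threshold numbered 1 at first, 4 without a count filter, 7 by DESeq2, 10 by voom, 2 with a length correction and 2 when counts were thinned to the shallowest library. With voom 1 adipocyte gene passed, and Adipoq, Retn and Lpl turned to -0.45, -0.53 and -0.29. The GC correction, tried because log2 fold changes fell with GC content (Spearman's rho -0.56 across 16059 genes, which are not independent replicates), turned Lpl to -0.092 and Lipe to 0.0027. Replicate numbers did not pair the tumors, with correlations of -0.236, 0.103, -0.045 and -0.290 between same-numbered tumors. With the number as a block, 70 genes and 0 pathway genes passed and Adipoq was at -0.55; with the block and the GC correction, 311 genes passed and Adipoq was at -0.84. Without both high tumors, chosen after seeing the data, 3981 genes and 14 pathway genes passed and Adipoq was at -0.077. On log2(TPM + 1) the median of all genes was 0.21 against 0.04 on counts, and that of the 9 adipocyte genes tested was 0.11. The cause of these changes was not tested. Wild-type tumor 4 limits the low genes, with 10 reads of Adipoq and 0 of Lep.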
